A study of Mus musculus with 2 samples.

Results

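The long non-coding regions described here are stretches of the mouse genome from which long RNAs without a known protein product are thought to be transcribed, and each was covered on the array by probes of 60 bases. Total RNA from the tooth and from the skin of wild-type mice (C57BL/6J per the study's methods), at postnatal day 0 per the labels (the study's methods name a later stage), was hybridised to 1 single-colour Agilent array per tissue. No transgene, treatment or knockout was part of these groups, and the number of animals behind each RNA was not given in the sources used here. The 608 probes of interest were chosen by the measured values themselves. They are the long non-coding probes that the scanner software called well above background on both arrays and whose log2 level was at least 1 higher in skin than in tooth. They lie in 491 regions, out of 16248 such probes in 4622 regions on the array and 4867 probes in 2585 regions measured on both arrays. The difference that selected them is therefore a description, and with 1 array per tissue no difference has a replicate check and no test was possible.

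Long non-coding RNAs act in the nucleus or the cytoplasm in many ways, as scaffolds for proteins, as guides of chromatin regulators or as host transcripts of small RNAs. Many are transcribed at low levels and in few tissues. NEAT1 is the scaffold of nuclear paraspeckles, HOTAIR lies in the HoxC cluster of body-patterning genes, and Mir17hg is the host transcript of a microRNA cluster that promotes growth. The skin at birth holds a stratified epidermis, developing hair follicles, dermis and fat. The tooth germ holds the enamel organ, whose ameloblasts make enamel, and the dental mesenchyme.

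The sequence of a probe is what the label binds, so those behind the main patterns are shown first, as deposited, 5′ to 3′, with their mm9 position and strand. The opening line is a probe of NEAT1, shown because this is the best known of the RNAs. The next 5 are among the 15 largest differences, and capitals mark runs of the triplets GGC and GGT. After them stand a probe with GGCAGCAG and a probe with GAGAGAGA in capitals, and then 2 probes of a repeat on chromosome 5, with capitals on the runs of 17 bases that recur in at least 4 of the 6 probes of the 2 regions.
NEAT1, chr19:5842594-5842653, reverse strand: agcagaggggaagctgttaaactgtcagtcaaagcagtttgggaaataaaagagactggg
chr14:115440726-115440785, forward strand: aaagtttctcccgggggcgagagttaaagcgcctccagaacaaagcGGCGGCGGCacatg
chr2:180165707-180165766, reverse strand: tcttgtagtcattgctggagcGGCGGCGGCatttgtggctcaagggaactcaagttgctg
chr12:83336381-83336440, forward strand: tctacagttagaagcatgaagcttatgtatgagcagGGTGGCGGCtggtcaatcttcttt
chr1:137503113-137503172, reverse strand: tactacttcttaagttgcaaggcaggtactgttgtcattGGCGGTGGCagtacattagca
chrX:146843063-146843122, reverse strand: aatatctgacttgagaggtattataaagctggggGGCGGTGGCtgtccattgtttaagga
chr3:85887469-85887528, reverse strand: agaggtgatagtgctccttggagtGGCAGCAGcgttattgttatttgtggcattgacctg
chrX:120963094-120963153, forward strand: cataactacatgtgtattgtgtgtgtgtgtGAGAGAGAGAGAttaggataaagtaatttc
chr5:22890323-22890382, reverse strand: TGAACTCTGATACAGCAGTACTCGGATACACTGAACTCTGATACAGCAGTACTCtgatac
chr5:22890040-22890099, reverse strand: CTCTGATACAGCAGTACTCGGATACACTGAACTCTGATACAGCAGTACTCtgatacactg

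The opposite strands of the same bases often gave unlike results, and pairs of probes from 2 places on chromosome 6 are shown as examples, with the bases that both strands cover in capitals.
chr6:50400013-50400072, forward strand: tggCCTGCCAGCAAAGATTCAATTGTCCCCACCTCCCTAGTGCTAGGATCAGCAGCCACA
chr6:50400016-50400075, reverse strand: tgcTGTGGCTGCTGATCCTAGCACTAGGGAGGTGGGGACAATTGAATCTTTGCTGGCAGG
chr6:145706342-145706401, forward strand: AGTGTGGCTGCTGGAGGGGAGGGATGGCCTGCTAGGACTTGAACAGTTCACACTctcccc
chr6:145706336-145706395, reverse strand: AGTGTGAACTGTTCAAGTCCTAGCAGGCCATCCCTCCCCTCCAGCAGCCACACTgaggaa

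All levels below are log2 of the processed spot signal minus the 75th percentile of the array, a signal of 428 for tooth and 276 for skin, and all differences are skin minus tooth on that scale. In tooth 6152 of the 16248 long non-coding probes (37.9%) exceeded background clearly and in skin 5316 (32.7%), against 0 and 1 of 308 negative-control spots. The dimmest signals called well above background were at -4.52 in tooth and -3.73 in skin. The software's error model gave the difference of a probe an error of 0.20 to 0.45, with a median of 0.25. This error covers the measurement on these arrays only and leaves out animals, dissection and labelling. Probes with the identical sequence gave a further measure, since 24 long non-coding probes measured on both arrays were printed a second time under a gene name, and the gap between these differences had a median of 0.09, an upper quartile of 0.24 and a maximum of 0.73.

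The share of measured long non-coding probes at least 2-fold higher in skin was 12.5% (608 of 4867), while the opposite direction held for 210. Both counts depended on the scaling. They became 187 and 728 when the arrays were scaled to the spike-in transcripts, and 359 and 321 when they were scaled to the median. Of all probes measured on both arrays, 3356 (69.0%, exact 95% binomial interval 67.63 to 70.25 over probes) were higher in skin, and the median difference was 0.29. Spike-in scaling moved that median by -0.63, and 27.2% were then higher in skin, whereas the median shift moved it by -0.25 and left 52.8%. Every difference given below thus carries the scaling to the 75th percentile.

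Most of the 608 differences were small. They had a median of 1.35 with quartiles of 1.12 and 1.80, and 379 of them lay between 1 and 1.5, 110 between 1.5 and 2, 78 between 2 and 3, and 41 at 3 or above. Subtracting 2 errors of the difference still left a value of at least 1 for 221 probes. The probes were dim in tooth. Their median level was -3.02 in tooth and -1.5 in skin, while the median over all 4867 probes was -1.99 in tooth and -1.72 in skin. Within 1 log2 unit of the dimmest tooth signal lay 205 of the 608 (33.7%) and 593 of all 4867 (12.2%). A probe near the dimmest tooth signal (-4.52) counted as measured only if it reached the dimmest skin signal (-3.73). The filter thus pushes such probes toward skin, and their excess is partly built into the choice. Without these dim probes, 403 of 4274 (9.43%) were at least 2-fold higher in skin.

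The threshold had no gap around it. Just inside lay the probes at chr1:162934720-162934779, chr2:48974221-48974280 and chr2:181663971-181664030, with differences of 1.0019, 1.0014 and 1.0004. Just outside lay those at chr1:42770029-42770088, chr2:174108670-174108729 and chr1:87375744-87375803, with 0.9994, 0.9988 and 0.9991. Well above background in tooth only were 1285 long non-coding probes, more than in skin only. The 449 probes well above background in skin only do not belong to the set. For these the fold is a bound, taken against the dimmest tooth signal or the probe's own tooth value if that was higher. It was at least 2-fold for 395 of them and at least 8-fold for 26, and the largest was at least 119-fold, at chr17:56692993-56693052. The dimmest signal called well above background was at -4.52 in tooth and -3.73 in skin. Where the tooth value lay below its limit, these unequal limits set part of the bound, so the count of 395 is partly built in.

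**Figure D1:**
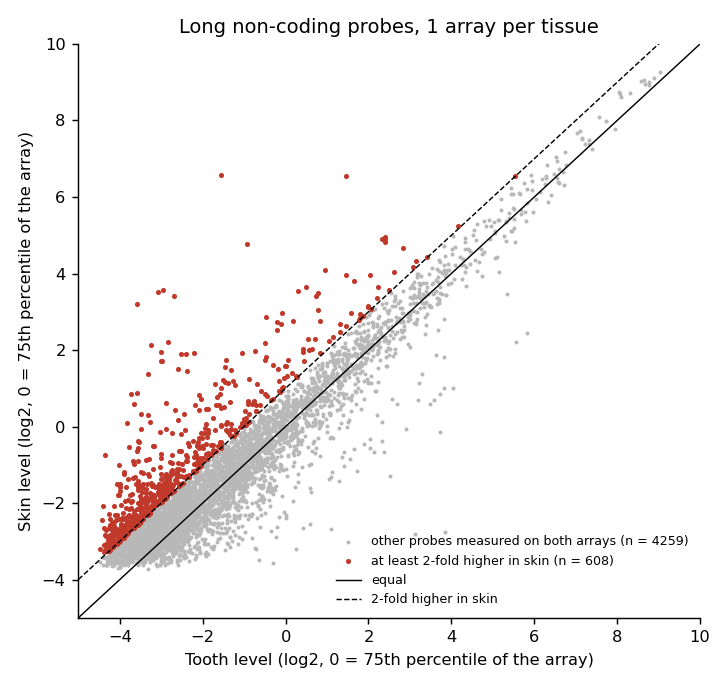
Level of each long non-coding probe measured on both arrays in tooth (horizontal axis) and in skin (vertical axis), as log2 relative to the 75th percentile of the array, with 1 array per tissue. The 608 probes at least 2-fold higher in skin are drawn in red above the dashed line, and most of them lie at the dim end, with a median of -3.02 in tooth.

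The largest difference was that of the probe at chr12:85262768-85262827 on the reverse strand, in the region chr12:85196395-85262884. It had a level of -1.57 in tooth against 6.58 in skin, which differ by 8.15 ± 0.21 (software error) or 284-fold. The other probes of this region measured on both arrays differed by 0.44 and 0.39 only. The reverse complement of this probe lies in the RefSeq promoter window of Gm31386, 70 bases before its start. A probe of an overlapping region on the same strand matched the promoter window of Numb, a regulator of Notch signalling, and differed by 0.34.

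At chr9:78116774-78116953 on the forward strand 3 probes that follow each other without a gap were all among the 5 largest differences. The probe at chr9:78116774-78116833 was at -2.70 in tooth and 3.40 in skin (6.11), the probe at chr9:78116834-78116893 at -3.58 and 3.20 (6.78), and the probe at chr9:78116894-78116953 at -2.95 and 3.57 (6.52). The last of them has the same 60 bases as an array probe for Gm3776, which was at -3.09 in tooth and 3.65 in skin (6.75). Gm3776 is annotated by RefSeq as protein-coding and has the glutathione S-transferase genes Gsta1 and Gsta4 as coding neighbours. A transcript of the region and a transcript of Gm3776 cannot be told apart by this sequence.

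The probe at chr3:85887469-85887528, which holds GGCAGCAG, read -3.09 in tooth against 3.51 in skin (6.59). Its nearest measured gene Sh3d19 differed by 1.09, from 0.29 to 1.37. The probe at chr14:115440726-115440785, beside the microRNA host gene Mir17hg, read -0.92 in tooth against 4.76 in skin (5.68), and the other measured probes of its region differed by 0.37 and 0.61. The probe at chr2:180165707-180165766 was at 1.46 in tooth and 6.54 in skin (5.08). Both of the last 2 probes hold GGCGGCGGC.

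The other probes among the 15 largest lay between -3.73 and -2.83 in tooth. The probe at chr6:126771123-126771182 went from -3.25 in tooth to 2.14 in skin (5.40), and that at chr16:22722656-22722715 from -2.83 to 2.21 (5.04). The probe at chr12:83336381-83336440 was at -3.0 and 1.94 (4.94), and the other measured probes of its region differed by 0.26 to 0.61. Differences of 4.73 and 4.71 were found at chr1:137503113-137503172 and chr6:122752095-122752154, and differences of 4.68, 4.58 and 4.47 at chr6:50400016-50400075, chr8:37590567-37590626 and chrX:146843063-146843122. These large values were seldom shared by the region. The 15 probes lie in 14 regions, which hold 42 other probes on the same strand. Of these, 17 were measured on both arrays, with differences from -0.46 to 1.31 and a median of 0.26, and 1 reached 2-fold. A further 23 of the 42 were not above background in skin.

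In other regions the probes did move together, as at NEAT1. Its 5 probes on the reverse strand, between chr19:5842534 and chr19:5842845, were at 2.41, 2.32, 2.41, 2.39 and 1.45 in tooth. In skin the same probes were at 4.89, 4.89, 4.96, 4.83 and 3.95. Every probe was thus higher in skin by nearly the same amount, 2.44 to 2.57, a spread smaller than the software error of 1 difference. The array's own Neat1 probe, at 2.61 in tooth and 5.31 in skin, differed by 2.70. Nearby, 3 probes of the region chr19:5834117-5835940 on the reverse strand differed by 2.82, 2.76 and 2.49. On the forward strand, opposite to NEAT1, the region chr19:5771425-5848475 had 6 of its 10 probes in the set, at 1.26 to 2.77. Its other probes were mixed, with -0.13, 0.23 and 0.80, and 1 probe cleared the background in skin only. Chaining probes of the set at most 50 kb apart gave a locus at chr19:5834543-5845350 with 15 of the 18 measured probes there in the set, at a median of 2.48.

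The locus at chr17:56690854-56692201 held 9 of 13 measured probes, on both strands, with differences of 1.55 to 3.60. The 5 probes of its region chr17:56687541-56694616 on the reverse strand were at 0.94, 0.49, -1.43, -1.71 and -3.20 in tooth. They were at 4.1, 3.64, 1.74, 1.10 and -0.52 in skin, so each was higher there, by 2.69 to 3.17. Safb2, the nearest measured gene, which encodes a scaffold attachment factor, differed by -0.07, and Znrf4, the other measured gene within 50 kb, was at -3.90 in tooth against -1.16 in skin (2.74). The region chr7:128341797-128414692 likewise had all 5 probes in the set, from -1.66 to 0.78 in tooth and from 0.78 to 3.05 in skin, with differences of 2.23 to 2.46. One of these probes shares at least 30 bases with a probe of Skap2, an adaptor protein gene on chromosome 6, which was at 0.10 in tooth and 2.42 in skin (2.31), so the signal of that probe cannot be told apart from Skap2.

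Smaller differences were shared by some or all measured probes of 5 further regions, often by probes lying close together. On chromosome 6, in chr6:129151512-129208737, all 7 measured probes of 10 were in the set, at 1.24 to 1.97, and the nearby lectin-like receptor gene Clec2d differed by 0.96. On chromosome 15, in chr15:85412264-85549139, 4 of 6 measured probes differed by 1.10 to 1.99 and the other 2 by 0.10 and 0.20. The 4 all lie between chr15:85435830 and chr15:85436104. In chr16:59557120-59602070 there were 4 of 8 measured probes at 1.05 to 1.74, with the others at 0.12 to 0.88. In chr12:103151385-103157796 there were 4 of 5 at 1.02 to 1.41, next to Atxn3, a deubiquitinase gene (1.5). In chr16:90008636-90015586 there were 4 of 5, at 1.10 to 1.34. On chromosome 5 the 6 probes of the printed repeat, in the overlapping regions chr5:22890322-22939119 and chr5:22887983-22939658, differed by 1.87 to 2.33. These 6 share runs of sequence and are not separate measurements of their regions.

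**Figure D2:**
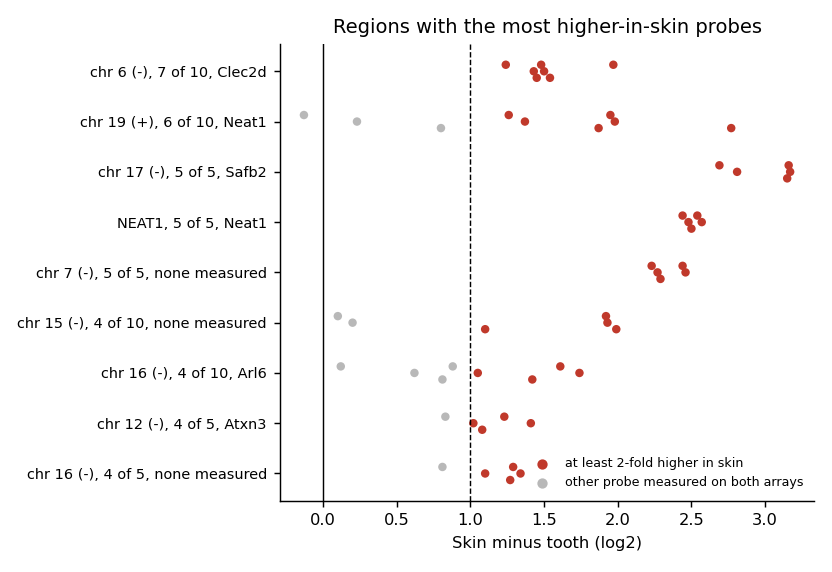
Skin minus tooth difference (log2, horizontal axis) of each probe measured on both arrays in 9 of the 10 regions with the most probes of the set, 1 row per region, labelled with the chromosome, the strand, the number of probes in the set of those printed and the nearest measured gene. The rows for NEAT1 and chromosomes 17 and 7 form tight groups above 2, while the chromosome 19 forward-strand row runs from -0.13 to 2.77.

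Such agreement was the exception. Of the 491 regions, 423 held 1 probe of the set, 42 held 2 and 26 held at least 3. In 208 regions only a single probe was measured on both arrays. Of the 283 regions with at least 2 measured probes, 68 had at least 2 in the set and in 30 every measured probe was in it. When each probe of the set was paired with the other measured probes of its region and strand, the other probe was also at least 2-fold higher in skin in 432 of 1075 pairs (40.2%). The same share over all measured long non-coding probes was 12.3% (1075 of 8716). The 511 other measured probes of these regions had a median difference of 0.34, and 390 of them (76.3%) were higher in skin, against 69.0% of all. The 69.0% includes the probes of the set, all higher in skin by the choice, whereas the 76.3% leaves them out. Tooth exceeded skin by at least 2-fold in 7 of the 511, and 7 regions held probes of both kinds.

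Probes lying next to each other were compared separately. For the 385 probes of the set with a neighbour on the same region and strand whose start lay at most 100 bases away there were 488 pairs, and in 243 of them the neighbour was measured on both arrays. Of these 243 neighbours, 126 (51.9%) were at least 2-fold higher in skin, with a median of 1.02. The share was 44.8% of 181 measured neighbours for probes with a difference of 1 to 2, 77.6% of 49 for those at 2 to 3 and 53.8% of 13 for those at 3 or above, a small group. Neighbours not above background in skin made up 48.8%, 19.4% and 52.9% of all neighbours of these groups. No share over all measured neighbouring pairs is given here. How far the agreement exceeds that of neighbouring probes in general can therefore not be read from these values.

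Positions on the genome were not used in the choice. Of the 601 probes of the set with a position, 221 (36.8%) had a probe of another region of the set within 50 kb, against 1278 of 4823 (26.5%) for all measured long non-coding probes. Another region here means another region name, so the opposite strand of the same stretch and overlapping regions were counted too. The probes of the set with a position were also chained into loci. Probes of 1 region, of overlapping regions and of both strands join the same chain. No matching count over all measured probes is given here, so the counts do not show clustering particular to the set. The set fell into 398 loci, of which 293 held 1 probe and 11 held at least 5, and these 11 account for 86 probes. Among them the locus at chr4:155564486-155591044 reached 4.43, at a probe whose nearest measured gene AW011738 differed by 0.76. Its probes nearest to the interferon-induced gene Isg15 (1.59) differed by 1.17 and 1.36. Both gene values came from dim probes, at -4.22 and -4.04 in tooth. A brighter probe of AW011738 differed by 0.19 and a brighter probe of Isg15 by 0.98, below 2-fold. By chromosome, the share of measured probes in the set ran from 6.85% to 19.3%, the highest on chromosome 19, where NEAT1 lies. The GC content had a median of 45.0% in the set and in all measured probes. The regions had a median length of 15.93 kb against 13.65 kb, and 45.3% of the probes were on the forward strand against 48.7%.

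The nearest gene was compared next, to ask whether the RNA of a neighbouring gene moved with the long non-coding probe. Both come from the same arrays, so these shares describe 1 comparison of tissues. For 391 probes of the set a named gene measured on both arrays lay within 50 kb, and in 83 cases (21.2%, exact 95% binomial interval 17.278 to 25.619) the nearest such gene was at least 2-fold higher in skin. The share was 9.35% (304 of 3250) over all measured long non-coding probes, and 10.8% (2105 of 19524) over all probes of named genes. Among the 151 probes at least 2-fold higher in tooth with such a gene, 2 (1.32%) had a nearest gene higher in skin, and 94 (62.3%) a gene higher in tooth. Genes on the same strand reached 2-fold in 60 of 224 cases (26.8%, 9.22% over all) and genes on the opposite strand in 23 of 167 (13.8%, 9.55% over all). Counted by gene, 32 of 251 (12.7%) were at least 2-fold higher in skin, against 82 of 921 (8.90%) for all. Without the 2 largest loci, which hold 30 probes, the share was 14.7% against 8.51% over all. A nearest gene can also be the transcript of the probe itself, and such cases were not separated in these shares. Of the 83 probes, 15 lay nearest to Neat1, 7 to Mir17hg, 3 to Gm3776 and 2 to 1110002E22Rik. The closest of them lay at most 0.03 kb from the gene's probe. The shares thus do not show how often a distinct neighbouring gene was higher in skin. The nearest gene was at least 2-fold higher in tooth for 22 of the 391 probes (5.63%), beside 357 of 3250 over all. Most nearest genes thus differed by less than 2-fold, with a median of 0.26 against 0.01.

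**Figure D3:**
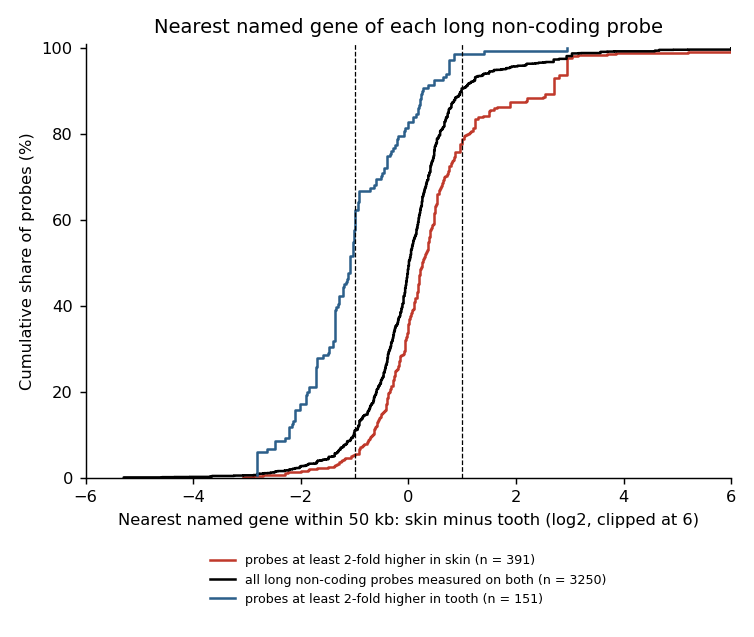
Cumulative share of probes (vertical axis, percent) by the skin minus tooth difference of the nearest named gene measured within 50 kb (log2, horizontal axis, values beyond 6 drawn at 6), for the 391 probes at least 2-fold higher in skin, the 3250 measured long non-coding probes and the 151 at least 2-fold higher in tooth. The red curve lies to the right of the black one, with 21.2% against 9.35% past the dashed line at 1, and the step near 2.7 is made by the 15 probes beside Neat1.

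A few of these neighbours came from lists of epidermal, hair follicle and patterning genes. Hoxc13, a homeobox gene required for hair keratin expression, was at -2.46 in tooth and 2.75 in skin (5.2). The probe of HOTAIR, at chr15:102774847-102774906 and 15.8 kb away, read -2.19 in tooth against -1.16 in skin, a difference of 1.03 that fell below 2-fold under spike-in scaling (0.40), a median shift (0.78), quantile normalization (0.92) and another background correction (0.74). Grhl3, a transcription factor of the skin barrier, was at -0.41 and 2.76 (3.16), and the probe at chr4:135139520-135139579, 41.5 kb away, was at -3.26 and -1.87 (1.39). Klf4, another barrier transcription factor, was at 4.09 and 5.33 (1.24), and the probe at chr4:55490650-55490709 was at -3.83 and -2.73 (1.10). Hoxc13 and Grhl3 differed by more than the probe near them. At Klf4 the values of gene and probe were closer than the median software error of a difference, 0.25, so their order is not resolved. Under spike-in scaling and another background correction the probe near Grhl3 fell below 2-fold (0.76 and 0.87), as did that near Klf4 (0.47 and 0.69), which also did under a median shift and quantile normalization (0.85 in both). Over the lists, the set held 2 of the 6 measured long non-coding probes nearest to a gene of epidermis and barrier, 1 of 3 for the hair follicle and 1 of 7 for patterning genes, counts too small to set against the 12.5% over all measured long non-coding probes. No long non-coding probe measured on both arrays had a gene of the epidermal differentiation complex as its nearest gene.

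Other neighbours higher in skin were Lgals3, which encodes galectin 3 (3.85), beside a probe at 1.18, and Bcl6, a transcriptional repressor (3.70), beside a probe at 1.18. Nfib, a transcription factor of hair follicle stem cells, read -1.15 in tooth against 1.05 in skin (2.20), and 3 probes on both strands 14.4 to 14.5 kb away differed by 1.02 to 2.43. Junb and Jun are subunits of the AP-1 transcription factor. Junb was at -3.54 and -1.65 (1.89) beside 3 probes at 1.01 to 1.48, and Jun was at 3.43 and 5.09 (1.65) beside a probe at 2.27. The Junb value came from a dim probe, within 1 log2 unit of the dimmest tooth signal. Itprid2 (2.80) stood beside 3 probes of 1 region at 1.66 to 1.80, and Myoz1, a gene of the muscle sarcomere (3.04), beside a probe at 1.10. These genes were picked because they were at least 2-fold higher in skin. Opposite cases were Tg, which encodes thyroglobulin, (-3.07) beside a probe at 1.04, Adgrb1, an adhesion receptor gene, (-2.88) beside a probe at 1.17, and Cdh5, the cadherin of blood vessel endothelium, which was at 1.30 in tooth and -1.40 in skin (-2.70) beside a probe at 2.77.

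The named long non-coding RNA genes, a list of 81 of which 56 were on the array and 31 measured on both arrays, did not as a whole share this direction. By the brightest probe, 2 were at least 2-fold higher in skin, Neat1 (2.70) and Mir17hg, which was at -0.37 in tooth and 0.87 in skin (1.24). In tooth 4 were higher, Snhg18 (-2.81), Dio3os (-2.56), Crnde (-1.91) and Foxd2os (-1.49). Single dimmer probes of Airn (-1.01), Pvt1 (-1.54) and Tug1 (-1.0) were also higher in tooth, while the brightest measured probes of the same genes were within 2-fold. The list had a median of 0.01, beside 0.29 over the long non-coding probes. H19 (0.59), Malat1 (-0.65) and Xist (0.04) were within 2-fold. Near genes of this list lay 155 measured long non-coding probes, and 29 of them were in the set, 15 of them beside Neat1 and 7 beside Mir17hg, while 12.5% of all measured probes were in the set.

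Of the 7 probes at the Mir17hg locus, chr14:115439996-115445887, the one with GGCGGCGGC set the upper end. Their median was 1.14 with a range of 1.02 to 5.68, and 16 probes were measured there with a median of 0.89. One of the 7 has the same sequence as the gene's own probe, and was at -0.34 in tooth and 0.70 in skin (1.04). Identical sequences also joined a probe of the set to Kifc5c-ps, a pseudogene (2.71 and 3.04 for the gene's own probe), to Gm16863, a long non-coding gene (2.46 and 2.50), and to the protein-coding 1110002E22Rik (2.26 and 2.54). With Gm3776 these are 5 pairs, and in each the gene's probe also passed 2-fold. In all, 9 probes of the set shared at least 30 bases on the same strand with a probe of a named gene, 4 of them with a protein-coding gene, against 82 and 47 of all 4867. Only 2 probes of the set, and 65 of all, lay whole inside a RefSeq promoter window (GRCm38.p6). The other one, with a difference of 2.59, matched the windows of Mthfs and Mthfsl.

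The strand was examined where probes on opposite strands overlapped by at least 45 bases. The array had 1003 such pairs, and 81 contained a probe of the set. In 45 of them the other strand was measured on both arrays, with differences from -1.78 to 3.17 and a median of 0.37, and in 5 of these both strands were in the set. In the remaining pairs the other strand was above background in skin only (3), in tooth only (4) or on neither array (29). Over the 142 pairs with both strands measured, 50 of 284 probes (17.6%) were in the set, and the other strand of these 50 was in it for 10, a share near that of all probes of such pairs. At the position on chromosome 6 whose probes are printed above, the reverse strand at chr6:50400016-50400075 was at -3.31 in tooth and 1.37 in skin (4.68), whereas the forward strand was at -1.06 and -1.26 (-0.20). At chr6:145706342-145706401 the forward strand was at -3.04 and -0.14 (2.90) and the reverse strand at 3.64 and 1.86 (-1.78), the one place where one strand passed 2-fold toward skin and the other toward tooth. Both skin-higher strands there contain GGCTGCTG. Both strands were high in skin on chromosome 17, where pairs gave 2.58 and 3.15, and 2.96 and 3.17.

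**Figure D4:**
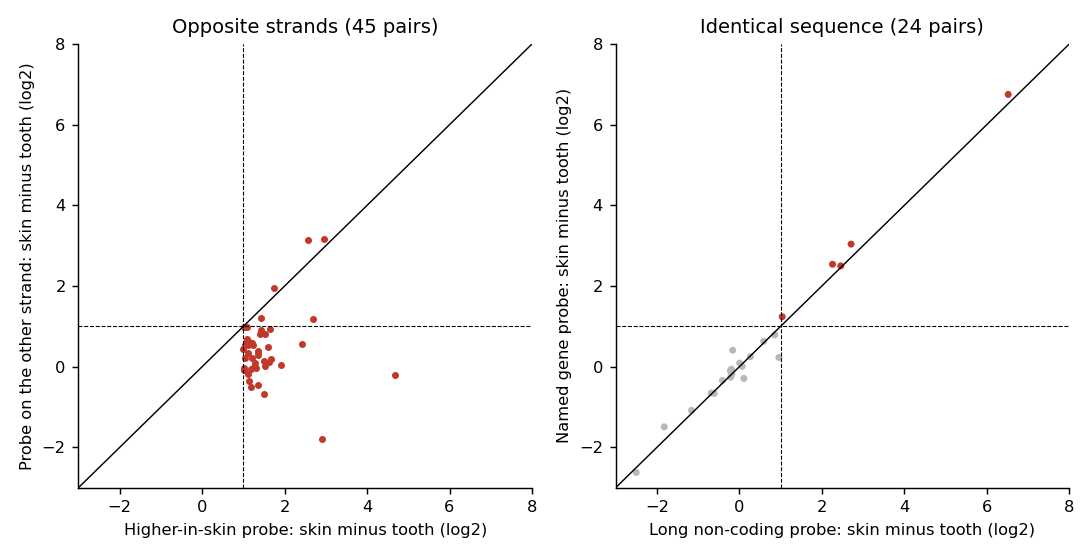
Skin minus tooth difference (log2) of pairs of probes, with the diagonal marking equal values and dashed lines at 2-fold. On the left, 45 probes of the set (horizontal axis) are set against the overlapping probe on the other strand (vertical axis), which lies mostly below 1. On the right, 24 long non-coding probes are set against a gene's probe of identical sequence, and the points follow the diagonal with a largest gap of 0.73.

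Short motifs were compared last. They were chosen after the values had been seen, so the counts describe these probes and are not tested. A motif was read in the probe's printed orientation and, as a control, as its reverse complement. A run of 2 triplets GGC or GGT, which makes 4 possible motifs of 6 bases, occurred in 3.11% of all 16248 long non-coding probes and in 218 (4.48%) of those measured on both arrays. Of these 218 probes, 61 (28.0%) were in the set, against 11.8% of the probes without the motifs, and 1 exceeded 2-fold toward tooth. The share of probes with a motif was 0.476% at differences of -1 and below, 4.44% between 0 and 1, 10.3% between 2 and 3, and 29.3% (12 of 41) at 3 and above, and 6 of the 15 largest held one. Of the 235 probes with the reverse complement of these motifs, 15 (6.38%) were in the set. The contrast remained within ranges of GC content. Below 40% GC 44.4% of the probes with a motif (4 of 9) and 11.3% of those without were in the set, and from 60% GC 22.8% and 8.53%. With spike-in scaling the shares with and without the motifs were 12.8% and 3.42%, and with a stricter filter on dim probes 21.4% and 8.60%.

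**Figure D5:**
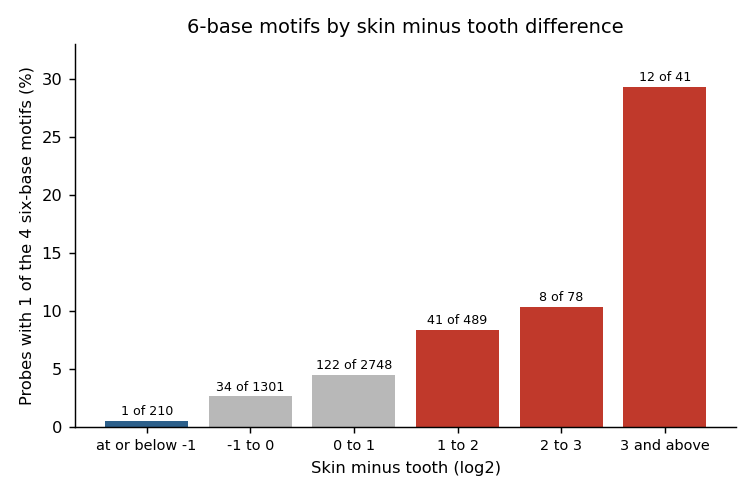
Share of long non-coding probes measured on both arrays (vertical axis, percent) that contain a run of 2 triplets GGC or GGT, by skin minus tooth difference (log2, horizontal axis), with the number of probes above each bar. The share is 0.476% among probes higher in tooth by 2-fold and 29.3% among the 41 probes at 3 and above.

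GGCTGCTG or GGCAGCAG occurred in 34 measured probes, of which 20 (58.8%) were in the set, with a median difference of 1.18. The reverse complements, CAGCAGCC or CTGCTGCC, occurred in 30 probes, of which 0 were in the set and 5 exceeded 2-fold toward tooth. GAGAGAGA occurred in 27 measured probes, 17 of them (63.0%) in the set, with a median of 1.28, and TCTCTCTC in 35, 3 of them (8.57%) in the set. As a motif of another kind, the polyadenylation signal AATAAA occurred in 192 probes, 9.90% of them in the set. The 3 groups of motifs overlapped little, with 1 probe of the set holding both a 6-base and an 8-base G-rich motif. Together they occurred in 97 of the 608 probes, in 17 of the 41 at 3 and above and in 8 of the 15 largest, against 278 of all 4867 (5.71%). Probes of named genes with the 6-base motifs were at least 2-fold higher in skin in 15.4% of 577 cases, against 10.6% without. The values of abundant skin transcripts whose coding sequence repeats glycine codons stand beside this. Loricrin (Lor) was at 1.44 in tooth and 10.56 in skin (9.11), Krt1 at -0.80 and 9.13 (9.93), and the probes of Krt10 at -0.53 and 9.22 (9.75) and at 1.36 and 9.76 (8.39). The part of such transcripts in the signal of the long non-coding probes was not tested.

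Skin and tooth differ in their cell types, and in whole tissue fewer cells of a type and less RNA per cell cannot be told apart. Marker genes followed the labels. For epidermis 5 of 5 genes measured on both arrays were at least 2-fold higher in skin (median 9.11), for hair shaft and inner root sheath 4 of 4 (7.84), for melanocytes 6 of 6 (4.66), for skeletal muscle 8 of 8 (3.37), for adipocytes 3 of 3 (1.94) and for mast cells 3 of 4 (1.67). For macrophages it was 0 of 4 (-0.01), for red cells 0 of 4 (-0.82) and for cartilage 1 of 4 (-0.33). The enamel markers Amelx, Ambn, Enam, Mmp20, Amtn and Odam and the dentin and bone markers Dspp, Dmp1, Phex and Sp7 were above background in tooth only. Which of these cells the long non-coding signal came from was not tested.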

How the data were processed

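RNA of 1 tooth and 1 skin sample was measured on 60-base probe arrays of 1 slide. Per the file headers, the deposited intensity values came from Agilent Feature Extraction 10.7.3.1, which subtracted the background, removed trends within an array and gave dim spots surrogate values. Its yes-or-no calls and error model stand in the same output. The study's methods name GeneSpring, a filter on very low signal and a percentile shift. A deposited table holds a ratio, the processed signal over 430.7 for tooth and 274.5 for skin, on a linear scale and not centred.

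Here spots with outlier calls (137 and 146) were left out, which gave 55675 non-control probes on both arrays. The spots of a probe were averaged on the log2 scale, and the array's 75th percentile was subtracted. Measured means well above background in more than 50% of the spots of a probe on both arrays. Arrays have no read depth, and their number, 1 per tissue, limits the precision, so no test was run. Shares over probes have exact 95% binomial intervals, which treat probes as independent and cover their number only. Regions and strands are those of the array's labels in mm9. No mm9 annotation was used, so whether a probe lies in an exon or intron was not analysed here. Gene names came from the array's accessions through a RefSeq table (GRCm38.p6) for 31375 probes, and 8052 other probes had no RefSeq name. In the gene lists and markers, the probe with the highest mean stood for a gene with several probes. For a nearest gene the measured gene probe closest in position was used, whatever its level. A locus chains probes at most 50 kb apart. Motifs were searched in the deposited probe sequences.

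The text names the 15 largest differences, the 10 regions with the most probes (1 of them is not reported here), up to 5 probes per list whose nearest gene is in a list (epidermal differentiation complex, epidermis and barrier, hair follicle, patterning, named long non-coding RNA genes), the 3 probes on each side of the threshold, and listed long non-coding RNA genes at least 2-fold different. Other probes and genes named were chosen after their values were seen, among them the other neighbouring genes, the strand pairs, the identical probes, the further loci and the motifs. The probes and lists were chosen with earlier results of these data known. Alternatives were scaling to 8 spike-ins, a median shift, quantile normalization, normexp with offset 50 (limma 3.58.1, R 4.3.3), other filters on dim probes, the deposited ratio table, a 4-fold threshold and other windows. Other steps used Python 3.11.15 with numpy 2.4.6, pandas 2.3.3 and scipy 1.17.1, and were tested on simulated data.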

Additional observations from a re-analysis of the deposited data

How the results depend on the processing

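Beside the count of 608 probes, 187 passed 2-fold toward skin under spike-in scaling, 359 under a median shift and 240 under normexp correction. Without a filter on dim probes the count was 2744 of 16248, with a stricter filter 212 of 2291, at 4-fold 119, and without probes within 1 (log2) of the tooth detection limit, an alternative chosen after seeing the data, 403. Quantile normalization (427) and the deposited ratio table (631) stayed within 1.5 times. The share of measured probes higher in skin (69.0%) was 27.2% under spike-in scaling, 52.8% under a median shift, 61.6% under quantile normalization, 79.2% under normexp, 75.4% without a filter and 66.4% with the stricter filter.

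The share of other same-region probes at 2-fold (40.2%) was 50.8% under spike-in scaling, 43.6% under a median shift, 24.6% without a filter, 58.5% with the stricter filter and 31.4% over both strands. In each setting it exceeded the share over all measured probes, which ran from 4.43% to 16.8%. The share of nearest genes at 2-fold (21.2%) was 29.2% under spike-in scaling, 30.4% with the stricter filter, 31.7% within 10 kb and, chosen after seeing the data, 14.7% without the 2 largest loci, against 5.05%, 9.14%, 9.62% and 8.51% over all measured probes. The share with another region of the set nearby (36.8%) was 26.1% at 10 kb and 47.1% at 200 kb, against 17.8% and 35.7% over all. The differences of the 15 largest probes and of those beside listed genes, 22 in all, kept their sign under the 7 settings tried. The 2 filters leave a difference as it is. Spike-in scaling, the median shift and the ratio table move all differences by a constant too small to turn these. The stricter filter dropped 16 of the 22 from the set. Below 2-fold fell 3 under spike-in scaling, 2 under a median shift, 2 under quantile normalization and 3 under normexp. Spike-in scaling moved every difference by -0.63, so smaller positive ones given for other probes and genes turned negative there. The causes of these shifts were not tested. The dim tooth signals limit the set, since the stricter filter, at 4 times the lowest detected signal, kept 212 probes. No paired analysis was possible because each tissue has 1 array and no test was run.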
